A study of Mus musculus with 2 samples.

Results

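The genes described here are 10 regulators and markers of epithelial-mesenchymal transition (EMT), of 14769 named genes measured in both embryos. They were chosen by name, and their probes were found through the RefSeq accession of each spot. On the mesenchymal side stand *Snai1*, *Snai2*, *Twist1*, *Zeb1*, *Zeb2* and *Vim*, and on the epithelial side *Epcam*, *Crb3*, *Esrp1* and *Esrp2*. Measured were 1 *Dullard*+/- and 1 *Dullard*-/- whole-embryo sample, both at E7.5 and of strain C57BL/6, with a 1-colour Agilent array for each. The study does not state how many embryos each sample held, and "embryo" below stands for the sample of that genotype. No wild-type embryo was measured, so the *Dullard*+/- embryo, which has lost a copy of the gene, is the reference. They are called heterozygote and homozygote here. The study made a null allele and a *LacZ* allele of *Dullard* (*Ctdnep1*, a nuclear envelope phosphatase), calls homozygotes of both *Dullard*-/-, and does not state which allele the arrayed embryos carried. Both alleles came from targeted embryonic stem cell clones whose chimaeras were crossed to C57BL/6. Neither genotype was replicated, so no test was run and no p-value is given. Each difference describes this pair of samples.

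In gastrulation, cells of the epiblast, an epithelium, lose their junctions at the primitive streak, pass through the basement membrane and spread as mesoderm. SNAIL and ZEB proteins are zinc finger repressors that bind E-box sequences of epithelial genes such as *Cdh1*, and TWIST1 is a basic helix-loop-helix factor that acts with them. ESRP proteins keep the epithelial splice forms of transcripts such as *Fgfr2*, and EPCAM and CRB3 belong to epithelial adhesion and to the apical polarity complex. In the mouse gastrula *Snai1* is the SNAIL family member known to be required for mesoderm cells to complete the transition.

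Upstream sequences of the members are shown because the E-box read by SNAIL and ZEB proteins can be seen in them beside the array values of the same genes. RefSeq windows (GRCm38.p6) matched 6 of the 10 members, namely *Snai1*, *Twist1*, *Zeb2*, *Vim*, *Epcam* and *Crb3*. *Snai2*, *Zeb1*, *Esrp1* and *Esrp2* were not matched. Member windows on the chromosome of *Zeb1* were left out beforehand, so *Zeb1* could not be matched. The count over all windows kept that chromosome. The 250 bases before the transcript start were searched for CACCTG and CAGGTG, which are each other's reverse complement, so both strands were read and the pair cannot overlap. Of 32851 windows of this length in the table, 17.2% held at least 1 match, 2.06% at least 2 and 0.247% at least 3. Among the members, *Snai1* held 1, *Epcam* 2 and *Crb3* 3, and the windows of *Twist1*, *Zeb2* and *Vim* held none. For each of the 3 members with a match 1 window is printed 5′ to 3′ with the matches in capitals. These windows are *Snai1* at chr2:167537945-167538194, + strand, *Epcam* at chr17:87635729-87635978, + strand and *Crb3* at chr17:57061951-57062200, + strand.
Snai1: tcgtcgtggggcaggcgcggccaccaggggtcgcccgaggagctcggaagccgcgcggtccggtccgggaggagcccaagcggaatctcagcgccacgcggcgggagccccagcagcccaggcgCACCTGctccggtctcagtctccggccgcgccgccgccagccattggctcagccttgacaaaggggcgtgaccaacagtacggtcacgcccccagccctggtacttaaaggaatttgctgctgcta
Epcam: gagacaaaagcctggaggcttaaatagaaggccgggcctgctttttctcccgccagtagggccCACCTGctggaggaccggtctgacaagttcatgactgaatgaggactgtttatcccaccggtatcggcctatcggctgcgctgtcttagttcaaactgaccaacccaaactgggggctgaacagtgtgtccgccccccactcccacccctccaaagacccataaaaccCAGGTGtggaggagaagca
Crb3: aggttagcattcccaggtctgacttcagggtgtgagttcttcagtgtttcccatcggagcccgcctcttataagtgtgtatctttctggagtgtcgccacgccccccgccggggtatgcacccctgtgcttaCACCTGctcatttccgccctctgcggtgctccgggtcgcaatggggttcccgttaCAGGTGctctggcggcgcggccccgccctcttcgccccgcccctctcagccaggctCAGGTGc
The match in *Snai1* starts 126 bases before the transcript start. Those in *Epcam* start 187 and 19 bases before it, and those in *Crb3* 118, 63 and 7 bases before it. *Crb3* has a second, overlapping window with another start, from which the same 3 matches lie 148, 93 and 37 bases upstream, and of its windows the first is printed. *Zeb2* has 4 windows. A match is a run of letters and was not measured as a bound site.

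Values are background-subtracted spot signals, in the arbitrary units of the scanner, the heterozygote first and the homozygote next. For a fold change each signal was divided by its array's 75th percentile (286 for the heterozygote, 264 for the homozygote). The log2 fold change is *Dullard*-/- over *Dullard*+/-, averaged over the probes of a gene that were well above background in both embryos. The error after ± comes from repeated spots of similarly bright probes, scaled to the number of spots behind each value, and it holds no spread between embryos. Leaving out controls, 72.6% of 43020 spots were well above background in the heterozygote and 68.1% in the homozygote. The *Dullard* probe gave 672 and 144, 4.31-fold lower in the homozygote but still well above background there. The null allele lacks every exon and the *LacZ* allele keeps the later ones, so without the allele and the probe's position this signal is only a partial check of the labels. By Q-PCR and in situ hybridization the study detected no *Dullard* mRNA in homozygotes of this stage. Of 45 marker genes of gastrula tissues and decidua, 37 were measured in both embryos. All 6 epiblast, all 6 streak and all 6 visceral endoderm markers were among them.

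All 10 members were measured in both embryos, with 12 of their 13 probes well above background in both. *Snai2* was the 1 member lower by 2-fold or more in the homozygote, against 0.765% of all genes, and no member was at least 2-fold higher, against 0.894%. At 1.5-fold, *Snai1* was the 1 member higher, against 3.92% of all genes, and *Snai2* the 1 lower, against 3.37%. The other 8 members lay within 1.5-fold, where 92.7% of all genes lay. The median log2 fold change was 0.13 over the 6 mesenchymal members and 0.01 over the 4 epithelial members, beside 0.01 over all genes. The members past 1.5-fold were thus both of the SNAIL family, and in opposite directions.

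**Figure D1:**
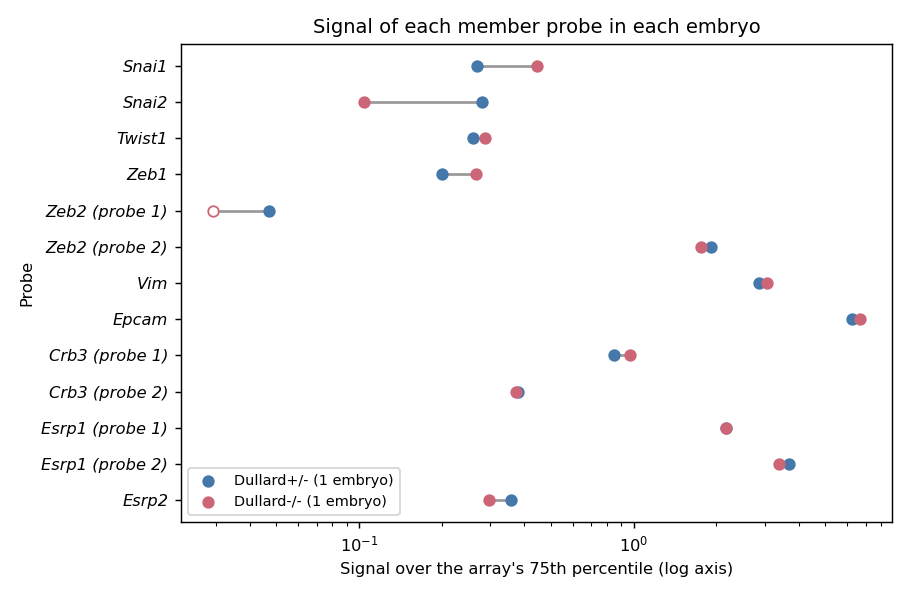
Signal of each member probe over its array's 75th percentile (horizontal log axis) in the *Dullard*+/- (blue) and *Dullard*-/- (red) sample, 1 each. An open circle marks where the probe was not well above background. Only the 2 points of a row can be compared, and the widest gaps are, in order, those of *Snai2*, *Snai1* and the *Zeb2* probe of 13.4 and 7.78 units.

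*Snai2* (NM_011415), which encodes SLUG, a repressor known from neural crest and mesoderm, has 1 probe on the array. It read 79.9 in the heterozygote and 27.6 in the homozygote, both well above background. This is 2.67-fold lower after scaling, a log2 fold change of -1.42 ± 0.14. Of the 14769 genes, 28 including *Snai2* were this far down or further. Genes were also split by signal into 4 groups of equal size, and *Snai2* fell in the second dimmest. In that group 0.704% of genes were lower by 2-fold or more and 0.948% higher. The lowest signal called well above background in the homozygote was 7.27, so the probe still stood above that limit. With normexp background correction, which adds an offset of 50 units and pulls dim probes toward 0, the value was -0.60, inside 2-fold.

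*Snai1* (NM_011427), the SNAIL repressor of the streak, also has 1 probe. It gave 77.0 in the heterozygote and 117 in the homozygote, 1.65-fold higher after scaling (log2 fold change 0.72 ± 0.09). Of all genes, 365 including *Snai1* were this high or higher, or 2.47%. In its group by signal, the same as that of *Snai2*, 4.79% of genes were higher by 1.5-fold or more and 3.39% lower. With normexp the value was 0.49, inside 1.5-fold.

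The log2 fold changes of this pair lay 2.14 ± 0.17 apart, or 4.40-fold. Since both probes were read on the same arrays, any constant scaling between the arrays cancels in that difference. Background correction does not cancel, and with normexp the gap was 1.09, or 2.13-fold. The gap shows unequal change within the embryos and does not say that either gene kept its level. Both embryos were read as bulk RNA, and fewer cells that use a gene cannot be told apart from less of its RNA per cell.

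**Figure D2:**
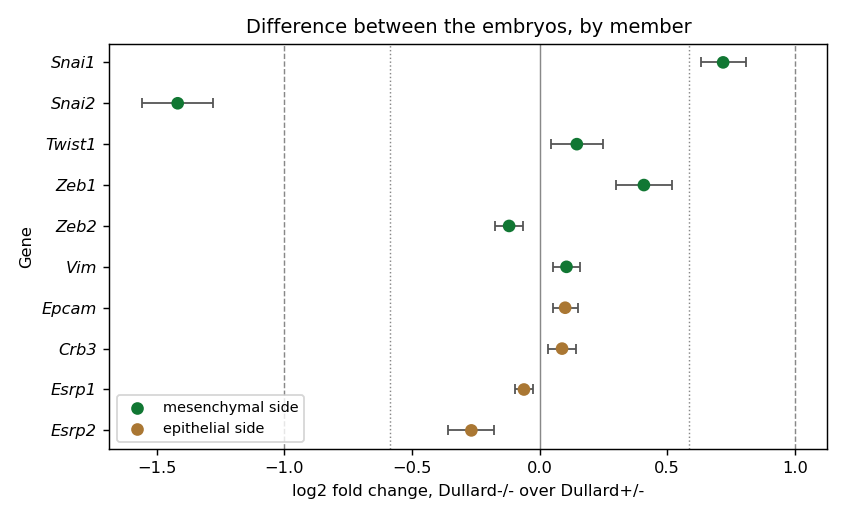
Log2 fold change of each member (*Dullard*-/- over *Dullard*+/-, horizontal axis), 1 sample per genotype. Bars are the error between replicate spots, dotted lines mark 1.5-fold and dashed lines 2-fold, and *Snai2* at -1.42 and *Snai1* at 0.72 stand outside the dotted lines.

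The other transcription factors differed less. *Zeb1* (NM_011546), with 1 probe, gave 57.4 and 70.4, 1.33-fold higher (log2 fold change 0.41 ± 0.11), and 7.87% of all genes were as high. *Twist1* (NM_011658), with 1 probe, gave 74.3 and 76.0, a log2 fold change of 0.15 ± 0.10. *Zeb1* was at 0.18 with normexp, and *Twist1* at 0.03 without scaling between the arrays.

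*Zeb2* (NM_015753), which in the mouse gastrula is known from neurectoderm and migrating mesoderm, has a pair of probes that differ in brightness. The brighter gave 548 and 467, a log2 fold change of -0.12 ± 0.06. The dimmer gave 13.4 in the heterozygote and 7.78 in the homozygote, where it was not well above background. As read, it was 1.59-fold lower in the homozygote, a log2 fold change of -0.67 ± 0.25. Its signal there was higher than the lowest signal called well above background, so this fold is a reading and not a minimum. Both probes pointed the same way, and the gene's value rests on the brighter. With the dim probe included the value was -0.39. *Zeb1* and *Zeb2*, the paired ZEB repressors, lay 0.53 ± 0.12 apart on the log2 scale.

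*Vim* (NM_011701), the intermediate filament protein of mesenchyme and the structural marker among the mesenchymal members, gave 816 in the heterozygote and 812 in the homozygote. Its log2 fold change was 0.11 ± 0.05, and -0.01 without scaling, so its direction turns with the scaling. Without scaling the median of all genes moved from 0.01 to -0.10.

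**Figure D3:**
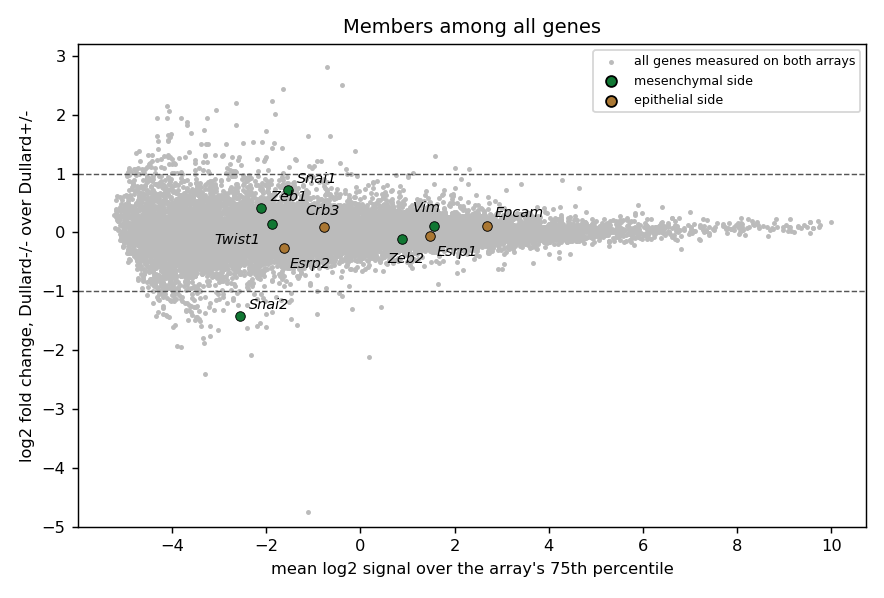
Vertical axis, log2 fold change of *Dullard*-/- over *Dullard*+/- for the 14769 genes measured in both embryos against their mean log2 signal over the 75th percentile of the array (horizontal axis). Grey points are all genes, coloured points the 10 members, and dashed lines mark 2-fold, with *Snai2* alone among the members beyond them.

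The 4 epithelial members lay between -0.27 and 0.10. *Epcam* (NM_008532), a surface adhesion molecule of epithelia, gave 1784 in the heterozygote and 1768.5 in the homozygote, with a log2 fold change of 0.10 ± 0.05. *Crb3* (NM_177638), the CRUMBS protein that marks the apical membrane, has 2 probes, which gave 242 and 256 on the brighter and 108 and 98.7 on the dimmer. The log2 fold changes of these probes were 0.19 ± 0.07 and -0.02 ± 0.09, with a mean of 0.09. Without scaling *Epcam* was at -0.01 and *Crb3* at -0.02, so neither has a settled direction. These are the members whose upstream sequences hold 2 and 3 E-box matches, and no relation of matches to fold change was tested.

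*Esrp1* and *Esrp2* encode the RNA-binding proteins that set epithelial splicing. The 2 probes of *Esrp1* (NM_194055) gave 620 and 572, and 1055 and 899, with log2 fold changes of 0.00 ± 0.06 and -0.12 ± 0.05. *Esrp2* (NM_176838) gave 103 in the heterozygote and 78.9 in the homozygote, 1.20-fold lower (-0.27 ± 0.09), and 13.7% of all genes were as low. With normexp *Esrp2* was at 0.00. The pair lay 0.21 ± 0.10 apart. Of 6 listed transcripts that ESRP proteins splice, none was past 1.5-fold, and *Fgfr2* was at -0.03 ± 0.03 over 2 probes. The array reads the amount of these transcripts and not which exons they hold.

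Related genes were taken from lists written for this comparison and are described by their counts beside those of all genes. The lists were chosen with earlier results of these data known. In its microarray comparison the study had reported *Gsc* higher and *T* lower, so the counts on their list are partly selected. The study also reported both directions by Q-PCR against wild-type embryos, and weaker *T* in the streak by in situ hybridization. Of 17 listed transcription factors of EMT and the streak, 14 were measured, of which 3 were past 1.5-fold upward and 4 downward, against 3.92% and 3.37% of all genes. *Gsc*, a homeobox gene of the anterior streak, gave 65.8 and 426 and was at 2.81. *Mesp2* and *Eomes*, factors of nascent mesoderm, were at 0.80 ± 0.09 and 0.76 ± 0.04. On the other side *Msgn1*, a factor of presomitic mesoderm, gave 55.4 and 13.9 and was at -1.88, and *T* (*Brachyury*) was at -1.19 ± 0.09. *Foxc1* and *Foxc2*, forkhead genes of paraxial mesoderm, were at -0.66 ± 0.21 and -0.60 ± 0.08. *Mesp1* was at -0.04. The list median was -0.08, and 7 of the 14 measured genes lay within 1.5-fold, where 92.7% of all genes lay. The same shares of all genes apply to the counts at 1.5-fold on the lists that follow. *Twist2* was well above background only in the heterozygote, with signals of 7.24 and 7.43 near the limit, and *Prrx1* and *Prrx2* in neither.

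Of 28 listed genes of ingression and mesenchymal adhesion 24 were measured, and *Mmp14*, a membrane matrix protease, was the 1 past 1.5-fold, at 0.70 ± 0.18 from signals of 27.0 and 40.6. The list median was 0.08. *Cdh2*, the N-cadherin of mesoderm, was at 0.36 ± 0.03, with both probes higher in the homozygote. *Net1*, a RHOA exchange factor, was at -0.39, and *Fn1*, which encodes fibronectin, at 0.20.

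**Figure D4:**
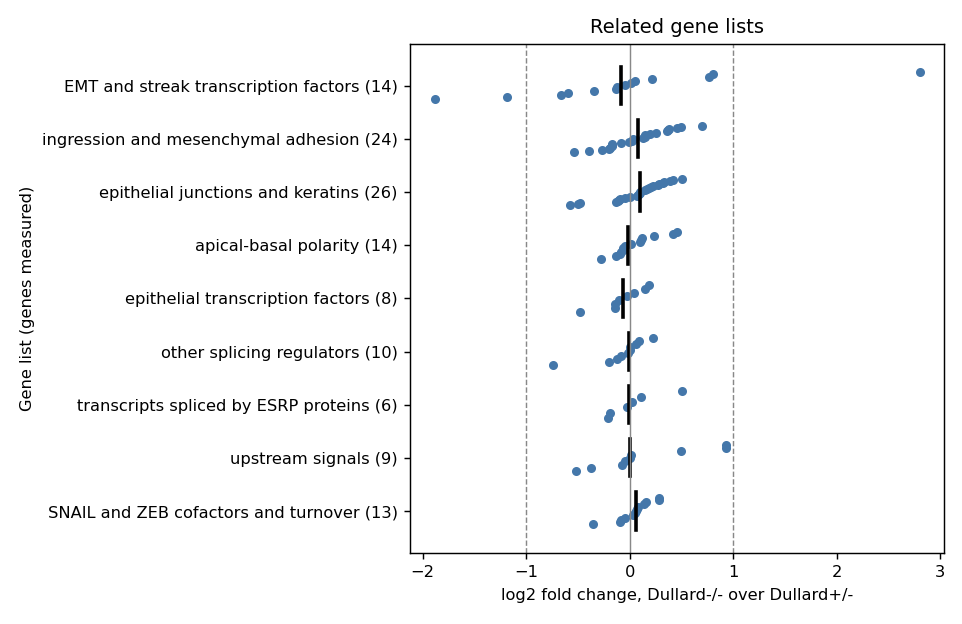
Horizontal axis, log2 fold change of *Dullard*-/- over *Dullard*+/- for each measured gene of the 9 related lists, 1 sample per genotype. Points are genes, black bars list medians and dashed lines 2-fold, and points beyond 2-fold lie on the list of EMT and streak transcription factors alone, with *Gsc* at 2.81 and *Msgn1* at -1.88.

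On the epithelial side, all 26 listed genes of junctions and keratins were measured and none was past 1.5-fold. Of these, 18 were above 0, or 69.2% beside 52.0% of all genes, with a median of 0.10. The count above 0 depends on the scaling, since without it the median of all genes was -0.10 and not 0.01. *Cdh1*, the E-cadherin repressed by SNAIL and ZEB proteins, gave 170 in the heterozygote and 184 in the homozygote and was at 0.23 ± 0.02. *Cdh3* (P-cadherin) was the highest at 0.51 ± 0.05, and *Dsg2*, a desmosomal cadherin, the lowest at -0.58. The 14 measured polarity genes had a median of -0.02 and the 8 measured epithelial transcription factors one of -0.06, and none of either was past 1.5-fold. *Ovol2*, a repressor that opposes EMT, was at 0.14 ± 0.04, and *Grhl2*, an activator of junction genes, at -0.10 ± 0.06.

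Of 10 other splicing regulators, *Mbnl1* was the 1 past 1.5-fold, at -0.74 ± 0.25 on a dim probe of 21.9 and 12.1. None of the 13 measured cofactors and turnover factors of SNAIL and ZEB proteins was past 1.5-fold. *Kdm1a*, the demethylase recruited by SNAIL, was at 0.28 ± 0.05, *Ctbp1*, the corepressor of ZEB proteins, at 0.29 ± 0.05, and *Gsk3b*, the kinase that marks SNAIL for breakdown, at 0.07 ± 0.05. Among 9 measured upstream signals, *Fgf8*, the streak FGF, was at 0.94 ± 0.05 and the TGF-β receptor gene *Tgfbr2* at 0.93 ± 0.17, and the other 7 lay within 1.5-fold. The 3 probes of *Fgf8* were all higher in the homozygote, from 0.65 to 1.40. By in situ hybridization the study saw strong *Fgf8* in the anterior streak of homozygotes and weaker *Fgf8* posteriorly. A whole-embryo signal does not resolve that position.

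Markers of several tissues differed between the embryos as well, and their part in the values of *Snai1* and *Snai2* was not tested. Summed over each list and relative to the 75th percentile, the 6 markers of extraembryonic and lateral mesoderm stood at 3.49 in the heterozygote and 3.03 in the homozygote, with *Tbx4* and *Postn* not above background in either. *Tbx20* on that list was at -0.72. The 4 primitive blood markers stood at 1.81 and 0.674, with *Hbb-bh1* at -2.08, *Gata1* at -1.30 and *Hba-x* and *Klf1* not above background. The 5 definitive endoderm markers stood at 33.25 and 49.82, and all were above 0. Among them *Hhex*, *Cer1* and *Foxa2* were at 0.77, 0.75 and 0.63. The streak markers stood at 12.2 and 15.8 in sum but went both ways, with *Mixl1*, a homeobox gene of the streak, at 1.39 and *Eomes* at 0.76, against *T* at -1.19 and *Msgn1* at -1.88. The epiblast markers stood at 570.5 and 621.6, of which the *Nanog* probe alone gave 534.6 and 567.4, and the list median was 0.26. *Fgf5* and *Otx2* on that list were at 0.89 and 0.82, and the other 4 lay within 1.5-fold. The visceral endoderm list stood at 77.1 and 76.4, with none of its 6 markers past 1.5-fold. The sum for extraembryonic ectoderm and trophoblast was 5.09 and 4.82, with *Prl3d1* at 1.07 on a dim probe, *Ascl2* at -0.74 and *Tpbpa* not above background. The decidua list stood at 4.05 and 3.92, and its markers *Prl8a2*, *Dcn* and *Lum* were not above background in either embryo. Of these sums *Bmp2* alone gave 2.79 and 2.68. The study places *Bmp2* in the visceral endoderm, so the sum does not measure decidua alone.

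**Figure D5:**
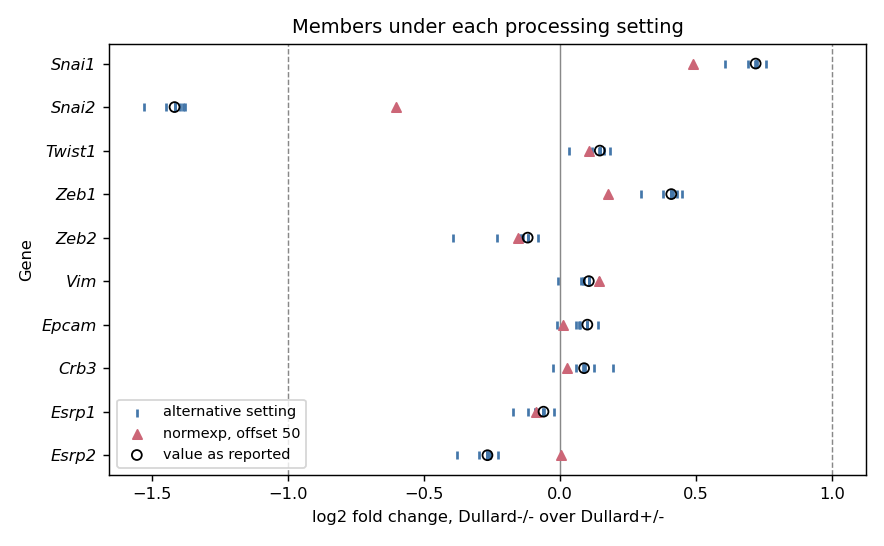
Log2 fold change of each member (*Dullard*-/- over *Dullard*+/-, horizontal axis) as reported (circles), under 9 other settings (ticks) and with normexp (triangles). Each genotype is 1 sample. *Snai2* stays below and *Snai1* above 0 throughout, and with normexp they lie at -0.60 and 0.49.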

How the data were processed

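RNA of 1 *Dullard*+/- and 1 *Dullard*-/- sample was read on 1 array each, on the same slide and in the same scan. Methods and labels differ on the input and kit of the amplification. The authors deposited spot intensity values from Agilent Feature Extraction 10.10, with the background already taken off, and a second table of intensity values. That table is linear, not centred by gene, and equals the spot signal times 4.91 (*Dullard*+/-) or 5.20 (*Dullard*-/-), with medians of 189 and 181. The origin of these constants is not known here.

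The log2 signal was taken relative to the 75th percentile over spots that are not controls. The 206 spots with an outlier mark were left out, none of them of a member, and no spot was saturated. Accessions named 30235 spots through a GRCm38.p6 gene table, and the 12785 without a name entered no gene. Spots of a probe and then probes of a gene were averaged. The error pools the 40 replicated probes nearest in signal, of 281. Between different probes of a gene the pooled SD was 0.29 (3747 genes). Precision is limited by having 1 array per genotype. The 10 members and the lists were chosen with earlier results of these data known. Named were all members, *Dullard*, the genes past 1.5-fold of each of the 9 related lists (up to the 4 largest, or all where 5 or fewer were counted in a direction), and further genes chosen after their values were seen (*Cdh1*, *Cdh2*, *Cdh3*, *Net1*, *Fn1*, *Dsg2*, *Ovol2*, *Grhl2*, *Kdm1a*, *Ctbp1*, *Gsk3b*, *Fgfr2*, *Mesp1*, genes of the tissue marker lists, and genes not above background). No mean spot signal was used, so normexp was run on median signals. The steps were tested on simulated arrays. Python 3.11.15, numpy 2.4.6, pandas 2.3.3, matplotlib 3.10.9, R 4.3.3 and limma 3.58.1 were used.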

Additional observations from a re-analysis of the deposited data

How the results depend on the processing

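Alternatives were no scaling, scaling to the median, quantile normalization, loess (span 0.3), normexp (offset 50), no filter on dim probes, outlier spots kept, the brightest probe, the mean of linear folds and the deposited processed table. Of 60 medians and counts over the members, 56 moved by less than the error between spots (medians) or by no more than 1.5 times (counts). Without scaling the mesenchymal median was 0.0129 and the epithelial median -0.10. With normexp the count of members at least 2-fold lower was 0 and that of members at least 1.5-fold higher was 0. Its offset pulls dim probes toward 0 by construction. Of 100 values of single members, 81 moved by less than their error. *Snai2* ranged from -1.53 to -0.60 and was past 2-fold in 9 of 10 alternatives, and *Snai1* ranged from 0.49 to 0.76 and was past 1.5-fold in 9 of 10. Each has 1 probe, well above background in both embryos and without an outlier mark. The settings on dim probes, outlier spots, the brightest probe and linear folds therefore had to return their reported values. Outcomes fixed in this way are counted in the 9 of 10, the 56 and the 81. Among 14769 genes 132 were past 2-fold upward and 113 downward (53.9% upward), against 90 and 165 without scaling (35.3%), 10 and 5 with normexp (66.7%) and, over the 20281 genes counted without the filter on dim probes, 484 and 778 (38.4%). No paired analysis was possible because each genotype is 1 sample.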

Other observations

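Some genes of the lists were well above background in the heterozygote alone, and those described here were picked after their values were seen. Fewer spots were called in the homozygote (68.1% against 72.6%), and the lowest called signal was higher there (7.27 against 6.20). Such a call therefore needs no drop in signal. *Col1a1*, also called in the heterozygote alone, gave 7.587 and 7.595, *Tgfb1* 7.36 and 9.56, and *Col3a1* 6.89 and 5.72. *Tfap2a*, the AP-2 factor of surface ectoderm and neural crest, has 2 probes. The brighter gave 31.8 in the heterozygote and 1.44 in the homozygote, where it was not well above background. With its homozygote signal set at 7.27, the lowest called well above background there, it was 4.05-fold lower. The other gave 11.7 and 1.81 and was 1.48-fold lower at that limit. Some signals above the limit were not called, so neither fold is a minimum. *Ovol1*, also of the listed epithelial transcription factors, gave 12.9 and 9.08, 1.32-fold lower as read. These are single readings of 1 sample per genotype.

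Of 54 listed genes with more than 1 measured probe, 3 had probes at least 2-fold apart in fold change. The share among all 3747 genes with more than 1 measured probe was not counted. Whether 3 of 54 is usual for these arrays is therefore not known. The 5 probes of *Patj*, a scaffold of the CRUMBS complex, ran from -0.55 to 0.65 on the log2 scale. *Dsg2* was at -1.15 on the probe of 135 and 56.5 units and at -0.01 on that of 222 and 203. *Tgfbr2* was at 1.48 on a probe of 7.26 and 18.7 and at 0.38 on one of 21.2 and 25.6. The 2 probes of *Tgfb2* went opposite ways, one from 1.74 to 15.1 and the other from 10.6 to 6.62, and each was well above background in 1 embryo only. The mean over probes of these genes, as the lists use it, hides such gaps, and their cause was not tested.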
